A study of Mus musculus with 8 samples.

Results

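Cd24a, Phlda1, Slpi, Uchl1, Clec2l, Selenom and Ankrd36 are 7 of the 50686 genes in the count table. They were chosen by their measured level at 16 h in these same libraries, which was lower with E47-ER, so their 16 h difference is given below as a description with no test. The cells, ILC2 (innate lymphoid cells of group 2) from the thymus of plck-Id1 transgenic C57BL/6 mice, were innate lymphocytes without antigen receptors that make type 2 cytokines such as IL-5 and IL-13. RNA was sequenced in bulk from 4 groups of 2 libraries: E47-ER cells at 4 h, GFP cells at 4 h, E47-ER cells at 16 h and GFP cells at 16 h. E47-ER cells had received the MIGR1 retrovirus with GFP and E47-ER, a fusion of the transcription factor E47 to the estrogen receptor, and GFP cells the same vector with GFP alone. All groups carried the Id1 transgene, were sorted for GFP and grown with cytokines (IL-7, IL-25, IL-33), and were given 4-hydroxytamoxifen, which sets the fusion free to enter the nucleus, for the time that names the group. E47-ER cells without the drug were not analysed here, so a difference present before the drug and one that follows it cannot be told apart. The labels do not say whether the replicates came from separate mice or cultures, and p-values measure only the spread between libraries, which may be technical.

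E47 is a product of Tcf3 and belongs to the E proteins, helix-loop-helix transcription factors that bind short DNA words called E boxes. Id proteins such as Id1 pair with E proteins and keep them off DNA, and in the thymus the balance between them is known to separate T cell from innate lymphoid development. The 7 genes have no common pathway. Cd24a encodes a small, heavily glycosylated protein held to the cell surface by a glycosylphosphatidylinositol (GPI) lipid anchor, abundant on immature thymocytes and B cell precursors. Clec2l encodes a C-type lectin-like membrane protein best known from brain. Slpi encodes a secreted inhibitor of serine proteases such as neutrophil elastase, and Selenom a selenocysteine-containing protein of the endoplasmic reticulum. Inside the cell act the products of Phlda1, a pleckstrin homology-like domain protein first described in dying T cells, Uchl1, a ubiquitin C-terminal hydrolase abundant in neurons, and Ankrd36, an ankyrin repeat protein of little-known function.

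The genes lie apart on the genome (GRCm38, GENCODE M21). Cd24a (ENSMUSG00000047139) spans chromosome 10, 43578284 to 43584265, and Phlda1 (ENSMUSG00000020205) the same chromosome, 111506286 to 111508645. Slpi (ENSMUSG00000017002) lies on chromosome 2, 164354070 to 164389095, Uchl1 (ENSMUSG00000029223) on chromosome 5, 66676091 to 66687234, and Clec2l (ENSMUSG00000079598) on chromosome 6, 38663069 to 38680864. Chromosome 11 holds both Selenom (ENSMUSG00000075702), 3514684 to 3517351, and Ankrd36 (ENSMUSG00000020481), 5569684 to 5689337. All 7 are annotated as protein coding. Antisense transcripts overlap exons of Phlda1 (Gm28592) and Uchl1 (Uchl1os), and both had 0 counts in all 8 libraries. The Cd24a transcript shares 259 bases at 92.3% identity with Gm15352, which had 0 counts. It also shares 218 bases at 96.8% identity with Gm6212, which was not analysed here. How reads that match a copy as well were counted is not given, so the Cd24a counts may lack some of them.

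Promoter windows are shown because E47 acts through E boxes and all 7 genes were lower with E47-ER. RefSeq windows (GRCm38.p6) of 300 bases, from 250 bases before to 50 bases after the start that RefSeq gives, were at hand for Slpi, Uchl1, Clec2l, Selenom and Ankrd36. They were searched on both strands for CAGCTG and CAGGTG, both preferred by E47, and then for any CANNTG, which includes them. The windows of Slpi (chr2:164356458-164356757, minus strand), Clec2l (chr6:38662819-38663118, plus strand) and Uchl1 (chr5:66675871-66676170, plus strand) are printed 5′ to 3′ with every CANNTG in capitals. The RefSeq start of Slpi, 164356507, is that of 1 of its 3 GENCODE transcripts and lies 32588 bases from the outermost end of the gene given above, which belongs to another transcript. The RefSeq start of Uchl1 lies 30 bases inside the GENCODE gene, and those of the other 3 are the GENCODE gene starts.
Slpi: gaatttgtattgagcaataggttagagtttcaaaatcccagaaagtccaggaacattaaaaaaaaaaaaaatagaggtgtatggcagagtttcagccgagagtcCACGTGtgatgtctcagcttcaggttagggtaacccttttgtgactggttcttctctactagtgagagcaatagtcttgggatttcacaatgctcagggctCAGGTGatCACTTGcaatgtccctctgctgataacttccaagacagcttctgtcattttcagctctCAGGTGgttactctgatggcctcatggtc
Clec2l: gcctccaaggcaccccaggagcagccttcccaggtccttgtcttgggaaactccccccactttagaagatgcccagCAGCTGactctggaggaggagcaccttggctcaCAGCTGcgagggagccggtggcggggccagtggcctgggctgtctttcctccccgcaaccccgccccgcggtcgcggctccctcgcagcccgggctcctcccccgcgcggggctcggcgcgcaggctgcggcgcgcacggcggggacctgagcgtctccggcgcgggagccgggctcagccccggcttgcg
Uchl1: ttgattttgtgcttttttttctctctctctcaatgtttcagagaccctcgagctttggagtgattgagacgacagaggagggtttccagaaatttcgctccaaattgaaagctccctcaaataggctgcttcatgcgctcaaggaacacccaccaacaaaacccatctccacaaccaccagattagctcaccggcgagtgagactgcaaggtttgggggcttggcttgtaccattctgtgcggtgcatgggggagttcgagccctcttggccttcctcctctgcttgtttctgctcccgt
The Slpi window held CAGGTG 2 times, beginning 45 bases before the start and at base 22 after it, and the Clec2l window held CAGCTG 2 times, beginning 174 and 141 bases before the start. The Selenom and Ankrd36 windows held 2 and 5 CANNTG words of other kinds, and the Uchl1 window held none. Thus 2 of 5 windows held CAGCTG or CAGGTG and 4 of 5 held any CANNTG. Among all 32851 windows of that table, 32.9% held the first kind and 72.3% the second, so the share among the 5 windows lay near that of promoters at large. A match of letters does not show that E47 binds there.

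The libraries held 8813782 to 18677675 counts each. The estrogen receptor gene Esr1, whose reads may include those of the construct, stood at 43.8 to 54.5 CPM (counts scaled to the library size, adjusted by the trimmed mean of M-values, TMM) in E47-ER libraries, against 0.211 to 0.932 in GFP libraries. All 14 ILC2 markers passed the filter on low counts, with Gata3 at 865 to 1480 and Il13 at 5610 to 9850 CPM across libraries. Their sum was 23900 to 24200 CPM in E47-ER and 26300 to 28500 in GFP libraries at 4 h, and 22200 to 22700 in E47-ER and 25900 to 32400 CPM in GFP libraries at 16 h. Of the 14, none was called at 4 h. At 16 h Rora (log2 fold change 1.004, adjusted p = 0.0139) and Ptprc (0.66, adjusted p = 0.0467) rose and none fell, where 1.25% of all genes were called higher. A fit lacking the library described next had values both ways, given as effect sizes at 4 h and 16 h. Rora (0.855 and 0.97), Id2 (0.87 and 1.12), Ptprc (0.355 and 0.64) and Il17rb (0.44 and 0.90) were higher. Il2ra (-0.32 and -0.53), Il5 (-0.46 and -0.50), Il13 (-0.36 and -0.50) and Il7r (-0.29 and -0.14) were lower. In that fit Il17rb was not called at 4 h, and Il7r was not called at 16 h. Replicate 2 of GFP at 16 h stood apart: its mean correlation of log2 CPM with the others was 0.954, against 0.980 to 0.983 for the other 7, and its short transcripts were over-represented. Each 16 h difference between E47-ER and GFP of the 7 genes is therefore also set against replicate 1 alone, whose spread is then assumed to be that of the other groups. For other genes this is done only where stated.

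All 7 genes passed the filter and were well covered, with 64 to 2456 counts per gene and library. Per length, as RPKM, the CPM per kilobase of exon, averaged over the 8 libraries, Phlda1 (41.5) and Cd24a (37.8) were the most abundant of the 7, at percentiles 90.4 and 89.4 of the 13644 genes tested. Uchl1 (23.2), Selenom (22.1), Slpi (20.1) and Clec2l (15.7) followed, and Ankrd36 (1.78) came last, at percentile 30.5. Only Ankrd36 was separate from its neighbours in this order: its highest library had 3.60 RPKM, against 8.17 in the lowest library of Clec2l, while the ranges of the other 6 genes overlapped.

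Both surface protein genes had less RNA in E47-ER cells at both times, and the gap was wider at 16 h. Cd24a had 83.6 and 80.9 CPM in E47-ER cells at 4 h, against 116.3 and 129.8 CPM in GFP cells. By 16 h Cd24a stood at 48.9 and 41.6 CPM in E47-ER cells, against 122.5 and 155.8 CPM in GFP cells. The groups did not overlap at either time, and the GFP libraries of both times lay between 116.3 and 155.8 CPM. Clec2l had 17.8 and 17.9 CPM in E47-ER cells at 4 h, against 23.8 and 29.3 CPM in GFP cells. By 16 h Clec2l stood at 12.1 and 11.7 CPM in E47-ER cells, against 28.8 and 38.5 CPM in GFP cells. For Clec2l too the groups did not overlap, and the replicates of E47-ER cells lay closer together than those of GFP cells.

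Of the secretory pathway genes, Slpi was lower at 16 h than at 4 h in E47-ER cells, while Selenom kept nearly the same E47-ER level. Slpi had 17.3 and 16.2 CPM in E47-ER cells at 4 h, against 26.2 and 26.7 CPM in GFP cells. The 16 h level of Slpi was 12.02 and 11.3 CPM in E47-ER cells, against 27.1 and 53.0 CPM in GFP cells. Replicate 2 of GFP at 16 h lay far above the other 3 GFP libraries of Slpi, which kept within 26.2 to 27.1 CPM. Selenom had 21.9 and 23.1 CPM in E47-ER cells at 4 h, against 30.9 and 31.9 CPM in GFP cells. The 16 h level of Selenom was 21.04 and 20.7 CPM in E47-ER cells, against 39.2 and 73.4 CPM in GFP cells. The E47-ER libraries of Selenom stayed within 20.7 to 23.1 CPM, and its highest values were those of GFP cells at 16 h.

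Among the intracellular protein genes, Phlda1 had its low E47-ER level already at 4 h. It had 49.0 and 56.9 CPM in E47-ER cells at 4 h, against 95.6 and 120.4 CPM in GFP cells. At the later time Phlda1 stood at 44.8 and 47.9 CPM in E47-ER cells, against 104.5 and 212.9 CPM in GFP cells. Replicate 1 of GFP at 16 h lay between the GFP libraries of 4 h, and the E47-ER libraries of 16 h lay just below those of 4 h. Uchl1 had 24 and 28.9 CPM in E47-ER cells at 4 h, against 34.3 and 45.5 CPM in GFP cells. At the later time Uchl1 stood at 20.2 and 20.03 CPM in E47-ER cells, against 42.6 and 87.4 CPM in GFP cells. Ankrd36, the gene with the fewest counts, had 7.30 and 8.06 CPM in E47-ER cells at 4 h, against 10.6 and 9.67 CPM in GFP cells. At the later time Ankrd36 stood at 5.28 and 3.69 CPM in E47-ER cells, against 10.7 and 18.8 CPM in GFP cells. For every one of the 7 genes all 4 E47-ER libraries lay below all 4 GFP libraries, which was so for 7.32% of the 13644 genes tested. The choice of the genes went by the 16 h part of that separation and not by the 4 h part.

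**Figure D1:**
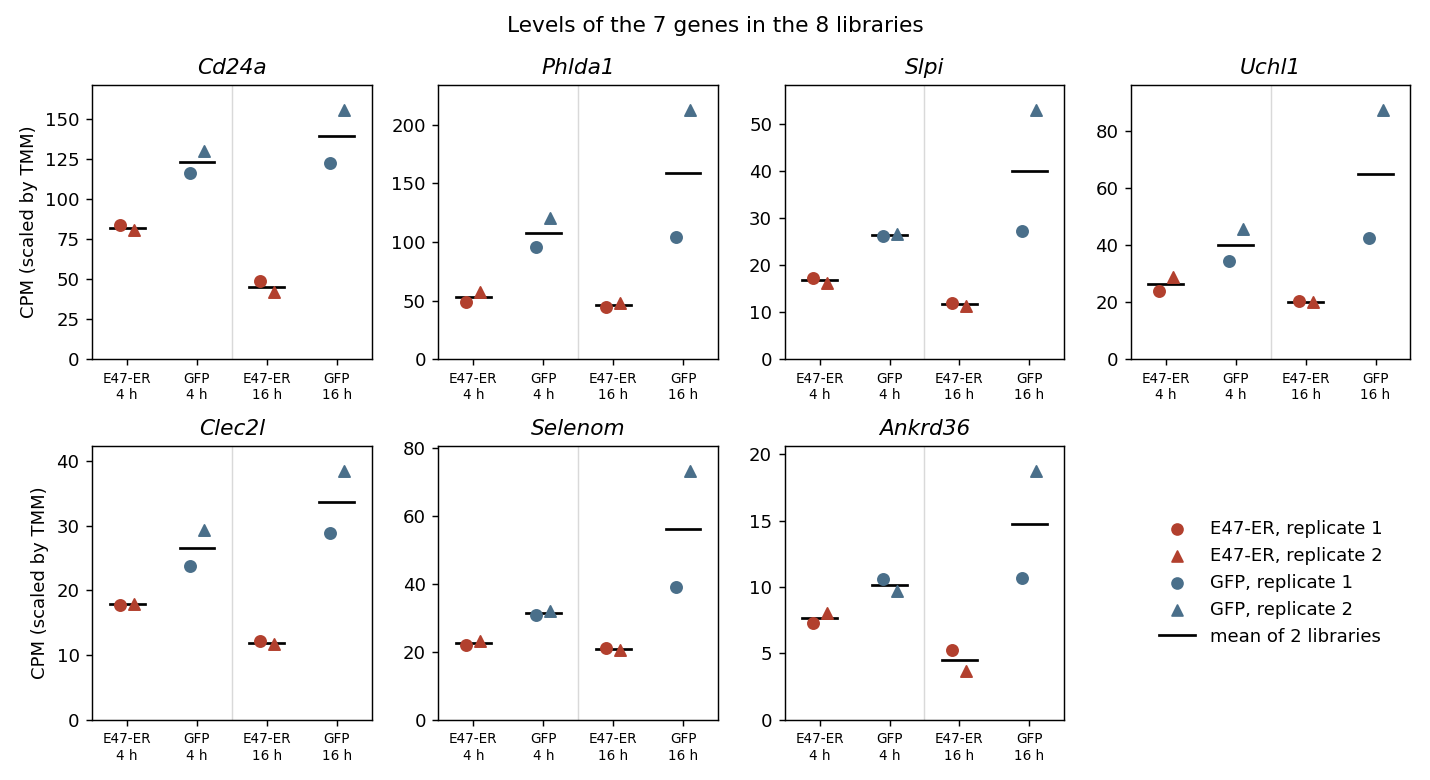
TMM-scaled CPM for each of the 7 genes (vertical axes from 0), with points for single libraries and bars for the mean of 2 libraries in E47-ER and GFP cells at 4 h and 16 h. The E47-ER points lie below the GFP points in every panel, and replicate 2 of GFP at 16 h is the highest point in each, at 212.9 CPM for Phlda1 and 155.8 CPM for Cd24a.

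The genes were chosen by their 16 h level, so the 4 h difference was the only one that took no part in the choice. The 4 h libraries did enter the 16 h calls through the shared estimate of spread, and earlier results of these data were known. The p-values at 4 h are therefore not fully independent of the choice. At 4 h the log2 fold change of E47-ER over GFP was negative for all 7, with a median of -0.58 and a range from -1.03 to -0.40, beside a median of -0.004 over all genes tested. Phlda1 was the furthest, at 52.9 ± 5.58 CPM in E47-ER cells and 108 ± 17.5 CPM in GFP cells (SD, n = 2 each), a log2 fold change of -1.03 (SE 0.299). Slpi had -0.66 (SE 0.276), Uchl1 -0.60 (SE 0.309), Cd24a -0.58 (SE 0.158) and Clec2l -0.57 (SE 0.182). Selenom had -0.48 (SE 0.258) and Ankrd36 -0.40 (SE 0.287). Both E47-ER libraries were below both GFP libraries for each of the 7, which held for 22.9% of all genes tested.

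With all 8 libraries in the fit, 0 of the 7 genes passed at 4 h by edgeR's quasi-likelihood test (adjusted p of 0.429 for Cd24a to 1 for Ankrd36), where 0.0147% of all genes were called lower. At an unadjusted p under 0.05 it was 4 of 7 (Cd24a, Phlda1, Slpi and Clec2l), beside 2.39% of all genes. With replicate 2 of GFP at 16 h left out, 6 of 7 fell, beside 1.68% of all genes called lower. That library is no part of the 4 h comparison and enters it only through the shared estimate of spread, and the log2 fold changes stayed between -1.03 and -0.40. In this fit the adjusted p was 8.89e-07 for Phlda1, 0.000245 for Cd24a, 0.00112 for Slpi, 0.00602 for Uchl1, 0.00643 for Clec2l and 0.00939 for Selenom, while Ankrd36 did not pass (0.279). A fit to the 4 libraries of 4 h alone called the same 6, beside 1.27% of all genes, with adjusted p from 0.00013 for Phlda1 to 0.0337 for Uchl1, and again not Ankrd36 (0.262). Leaving out replicate 1 of GFP at 16 h also gave 6 of 7, beside 1.72% of all genes, and leaving out any of the other 6 libraries gave 0 of 7 and 0% of all genes called lower. With all 8 libraries, limma voom with quality weights called 4 of 7, beside 0.975% of all genes, edgeR without the filter on low counts 1 (beside 0.127%), and DESeq2 only Phlda1 (adjusted p = 0.0499, beside 0.125%).

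**Figure D2:**
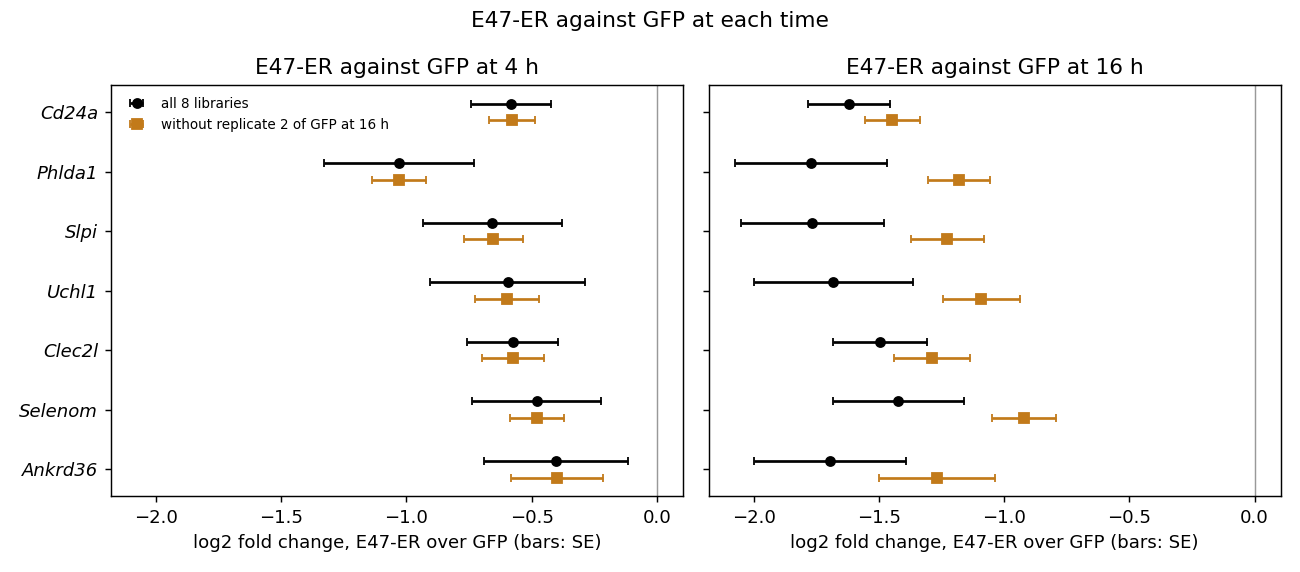
Log2 fold change of E47-ER over GFP at 4 h (left) and 16 h (right) for each of the 7 genes, with bars of 1 SE, from the fit to all 8 libraries (black) and from the fit without replicate 2 of GFP at 16 h (orange). At 4 h both fits give the same values, from -1.03 for Phlda1 to -0.40 for Ankrd36, with shorter bars without that library, and at 16 h the values without it lie closer to 0.

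At 16 h, where the genes were chosen, the log2 fold changes with all 8 libraries ran from -1.77 to -1.42, with a median of -1.68, beside -0.006 over all genes. Phlda1 had -1.77 (SE 0.305), Slpi -1.76 (SE 0.285), Ankrd36 -1.69 (SE 0.302), Uchl1 -1.68 (SE 0.317), Cd24a -1.62 (SE 0.163), Clec2l -1.49 (SE 0.188) and Selenom -1.42 (SE 0.261). In mean CPM the E47-ER level was 63.0% (Selenom) to 70.9% (Slpi) below the GFP level. All 7 were called, as their choice requires, where 0.337% of all genes were called lower. They filled places 2 to 8 among the 35 called lower genes with a mean log2 CPM of 3 or more, between Nupr1 (-2.19) above and Zbtb32 (-1.35) and Mettl1 (-1.34) below, with Selenom (-1.42) the member nearest to them. Both E47-ER libraries lay below both GFP libraries for all 7, beside 26.6% of all genes. Since the choice used this contrast, its calls support nothing, and how they depend on single libraries is given only to describe them. Only Cd24a and Clec2l passed when 1 library of 4 h was left out, beside 0.028% (either GFP library), 0.035% (replicate 1 of E47-ER) and 0.0345% (replicate 2 of E47-ER). None passed, and 0% of all genes were called lower, without either E47-ER library of 16 h or with only the 4 libraries of 16 h, and a replicate block within each time kept 1 of 7, beside 0.0293%.

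Against replicate 1 of GFP at 16 h alone, every gene was still lower with E47-ER, by less. Cd24a changed least with this choice, at -1.45 (SE 0.111), and Clec2l had -1.29 (SE 0.152), Ankrd36 -1.27 (SE 0.231) and Slpi -1.23 (SE 0.145). Phlda1 had -1.18 (SE 0.125), Uchl1 -1.09 (SE 0.154) and Selenom -0.92 (SE 0.128). The mean of the 2 E47-ER libraries was 0.369 times that GFP library for Cd24a and 0.531 times for Selenom, the ends of the range over the 7 genes. In this fit 4.53% of all genes were called lower. The order of the genes thus depended on the library: Phlda1 was first of the 7 with both GFP libraries and the fifth against replicate 1, while Cd24a moved from the fifth to the first.

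Replicate 2 of GFP at 16 h was the highest library for all 7 genes. It had 2.05 times the CPM of replicate 1 for Uchl1, 2.04 times for Phlda1, 1.95 times for Slpi, 1.87 times for Selenom and 1.76 times for Ankrd36, but 1.34 times for Clec2l and 1.27 times for Cd24a. Relative to the other 3 GFP libraries, the median log2 difference of this library was 0.85 among tested genes with a longest transcript of up to 1000 bases, 0.56 from 1000 to 1500, 0.34 from 1500 to 2000 and -0.37 above 5000. Of the 7 genes, 5 have longest transcripts of 876 (Slpi) to 1816 (Cd24a) bases, with Phlda1 at 1949 and Ankrd36 at 4491. Cd24a (0.34) and Clec2l (0.50) differed in this library about as much as genes of their length did. Ankrd36 (0.86, beside a median of -0.16 for its length), Phlda1 (1 beside 0.34), Uchl1 (1.11 beside 0.56) and Selenom (1.11 beside 0.56) lay further up, and Slpi (0.99 beside 0.85) a little. A fit that removed the trend with length in each library, with all 8 libraries kept, gave -1.48 (SE 0.124) for Cd24a, -1.28 (SE 0.141) for Clec2l, -1.19 (SE 0.181) for Selenom and -1.86 (SE 0.337) for Ankrd36 at 16 h. The same fit gave -1.63 (SE 0.25) for Phlda1, -1.39 (SE 0.165) for Slpi and -1.37 (SE 0.214) for Uchl1. The part of RNA quality in these values was not tested.

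**Figure D3:**
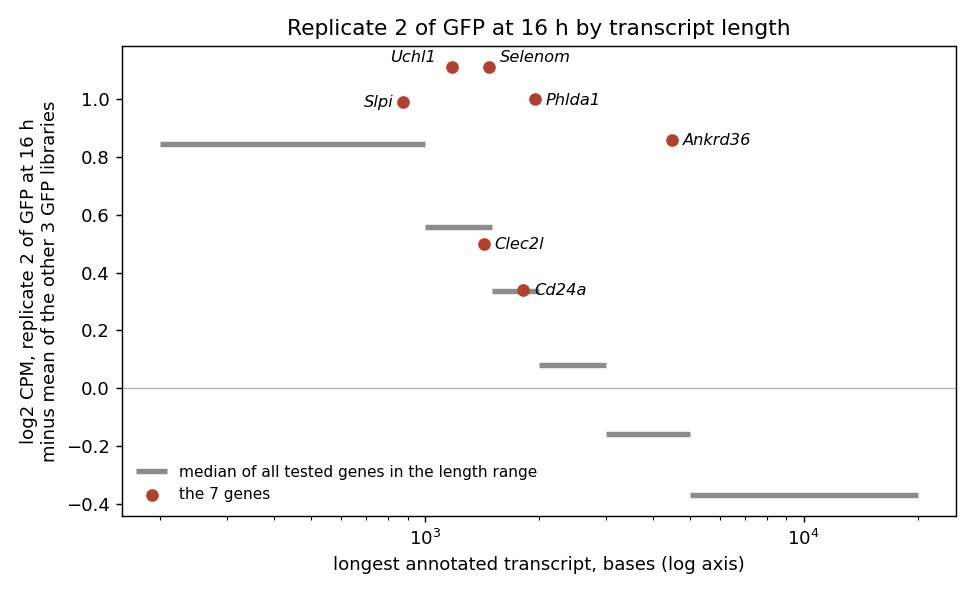
Difference in log2 CPM between replicate 2 of GFP at 16 h and the mean of the other 3 GFP libraries (vertical axis) against the longest annotated transcript in bases (horizontal log axis), with the 7 genes as points and grey bars for the median of all tested genes in each range of length, the first and last of which are open-ended. Cd24a (0.34) and Clec2l (0.50) lie on or near the bars, and Ankrd36 (0.86) lies far above the bar of its length.

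These genes were grouped as falling late, yet all 7 already stood lower in E47-ER cells at 4 h. The 4 h log2 fold change amounted to 23.7% (Ankrd36) to 58.2% (Phlda1) of the 16 h one with all 8 libraries. Against replicate 1 of GFP at 16 h alone it amounted to 87.2% for Phlda1, 54.7% for Uchl1, 53.3% for Slpi, 51.9% for Selenom, 44.6% for Clec2l, 40.0% for Cd24a and 31.5% for Ankrd36. The effect at 16 h minus that at 4 h was -1.04 (SE 0.225) for Cd24a with all 8 libraries and -0.87 (SE 0.145) against replicate 1 alone. For Ankrd36 it was -1.29 (SE 0.416) and -0.87 (SE 0.296), and for Clec2l -0.92 (SE 0.26) and -0.71 (SE 0.198). For Phlda1 it was -0.74 (SE 0.42) and -0.15 (SE 0.166), the last within 1 SE of 0. These differences rest on the 16 h libraries that chose the genes and are given without a test.

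Within E47-ER cells, Cd24a was lower at 16 h, at 45.2 ± 5.14 CPM, than at 4 h, at 82.2 ± 1.91 CPM (SD, n = 2 each), a log2 fold change of -0.86 (SE 0.16). Ankrd36 had -0.78 (SE 0.303), Clec2l -0.59 (SE 0.187), Slpi -0.52 (SE 0.283), Uchl1 -0.39 (SE 0.314), Phlda1 -0.19 (SE 0.299) and Selenom -0.11 (SE 0.26). For all 7 both 16 h libraries of E47-ER cells lay below both 4 h libraries, which held for 24.5% of all genes tested, by a narrow margin for Phlda1 (47.9 CPM at most at 16 h, against 49.0 CPM at least at 4 h) and Selenom (21.04 against 21.9 CPM). Within GFP cells with replicate 1 as the only 16 h library, the change with time was -0.01 (SE 0.11) for Cd24a and lay between -0.05 (Phlda1) and 0.12 (Clec2l) for all but Selenom, which had 0.32 (SE 0.126). With both GFP libraries all 7 were higher at 16 h, from 0.18 for Cd24a to 0.83 for Selenom.

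**Figure D4:**
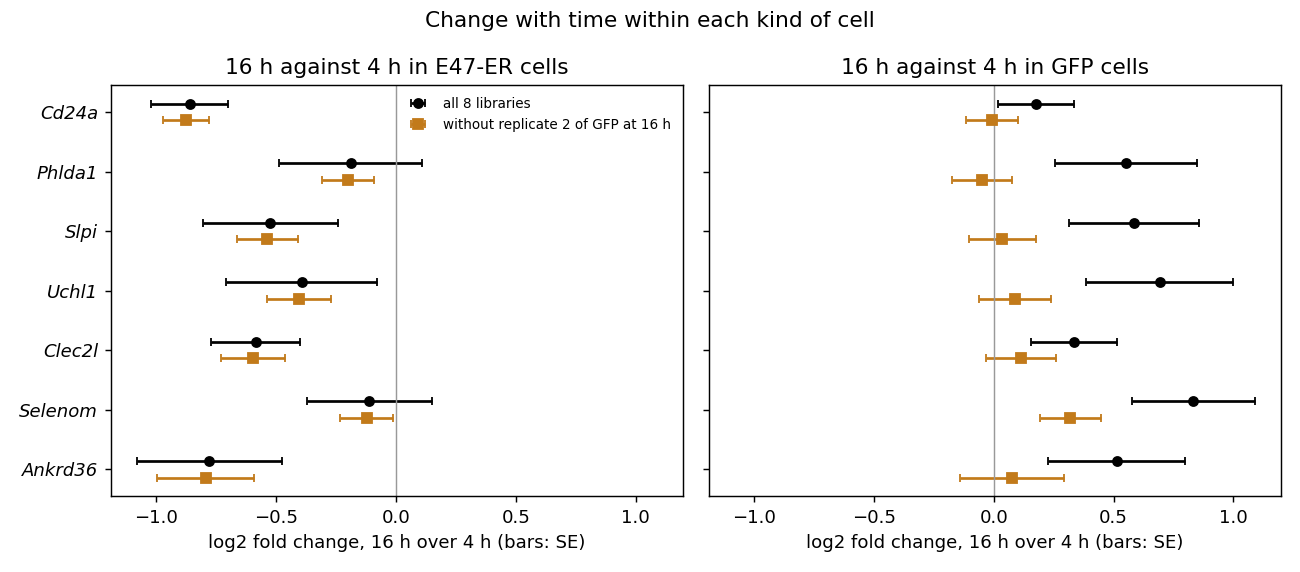
Log2 fold change of 16 h over 4 h within E47-ER cells (left) and within GFP cells (right) for each of the 7 genes, with bars of 1 SE, from the fit to all 8 libraries (black) and from the fit without replicate 2 of GFP at 16 h (orange). In E47-ER cells the values run from -0.86 for Cd24a to -0.11 for Selenom, and in GFP cells without that library they lie near 0 for all but Selenom (0.32).

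Across the 8 libraries the log2 CPM of the 7 genes moved together, with a Pearson r of 0.81 (Cd24a with Selenom) to 0.98 (Phlda1 with Uchl1) over the 21 pairs. These r values describe 8 points that share their libraries, and the choice of genes made them high. Among 8809 genes with a mean log2 CPM of 3 or more, the profiles most like Cd24a were those of Tars (r = 0.987), a tRNA synthetase gene, Ninj1 (0.982), a cell surface protein gene, Clec2l (0.980), Car8 (0.977) and Ahcy (0.972). Without replicate 2 of GFP at 16 h these r values were 0.988, 0.979, 0.983, 0.983 and 0.965. The most similar profile was that of Bnip3 for Phlda1 (0.992), Nupr1 for Slpi (0.991), Mdh2 for Uchl1 (0.995), Ninj1 for Clec2l (0.990), Tkt for Selenom (0.992) and Mettl1 for Ankrd36 (0.987). A like profile did not mean a like size: Tars had a log2 fold change of -0.46 at 16 h, Mdh2 -0.39 and Tkt -0.30, against -1.16 for Ninj1 and -2.19 for Nupr1.

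Genes related to the 7 by family or function were counted in the same fits. Of the 16 other tested genes for GPI-anchored lymphocyte surface proteins, 1 rose at 4 h and 3 rose at 16 h in E47-ER cells, and none fell, with a median of 0.15 at 16 h. Of all genes, 0.271% were called higher at 4 h and 1.25% at 16 h. The semaphorin gene Sema7a stood at 62.8 ± 4.67 CPM in E47-ER cells at 4 h and 26.2 ± 1.80 CPM in GFP cells (SD, n = 2 each; log2 fold change 1.26, SE 0.16, adjusted p = 0.0307). At 16 h it had 0.98 (SE 0.162, adjusted p = 0.0275), and Ulbp1, which encodes a ligand of the NK cell receptor NKG2D, had 1.03 (SE 0.174, adjusted p = 0.0307). The prion protein gene Prnp, named here after its value was seen, had 0.80 (SE 0.153, adjusted p = 0.0479). In the fit that leaves out replicate 2 of GFP at 16 h, 3 of these 16 rose and 1 fell at 4 h and 4 rose and 1 fell at 16 h, where 2.64% of all genes were called higher at 4 h and 4.39% at 16 h. The genes that fell were Ly6c1 at 4 h (-0.39, adjusted p = 0.0361) and Bst2, which encodes the viral restriction factor tetherin, at 16 h (-0.41, adjusted p = 0.0362), both named after their values were seen. Of the genes for receptors of CD24 and for proteins related to them, 2 of 9 were tested and neither was called. At 16 h Cd33, from the related proteins, had 1.90 (SE 0.759) on very few counts, and the adhesion molecule gene L1cam 0.10 (SE 0.19).

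Of 19 other protease inhibitor genes, 0 were called at either time with all 8 libraries, with medians of -0.21 at 4 h and -0.63 at 16 h. Against replicate 1 of GFP at 16 h, the median at 16 h was -0.21, and 2 of the 19 fell at each time, where 1.68% of all genes at 4 h and 4.53% at 16 h were called lower. They were named after their values were seen: Timp3, an inhibitor of matrix metalloproteinases, at both times (-0.77, adjusted p = 0.00382 at 4 h and -1.30, adjusted p = 8.63e-05 at 16 h), Serpinb9b at 4 h (-0.63, adjusted p = 0.00586) and the cystatin gene Cst7 at 16 h (-0.52, adjusted p = 0.000524). Timp2, also named after its value was seen, had 2.06 at 16 h in this fit, at a mean log2 CPM of only 0.42. With all 8 libraries Timp2 had 0.80 (SE 0.633) at 16 h and was not called. Of the serine protease genes 4 of 8 were tested and none was called, with Gzmc, a granzyme gene, having the smallest adjusted p at 16 h (-0.68, SE 0.404, adjusted p = 0.319; 0.14 and adjusted p = 0.862 in the fit lacking replicate 2 of GFP), while Elane, the gene of neutrophil elastase, had 0 counts in all libraries.

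Of 19 other selenoprotein genes, 0 were called at either time with all 8 libraries, with medians of -0.05 at 4 h and -0.45 at 16 h, and without replicate 2 of GFP at 16 h the 16 h median was -0.16. In that fit Selenow (-0.41, adjusted p = 0.00636) and the thioredoxin reductase gene Txnrd1 (-0.36, adjusted p = 0.0277) fell and the plasma selenoprotein gene Selenop rose at 16 h (0.56, adjusted p = 0.0182), all 3 named after their values were seen. Of all genes, 4.53% were called lower and 4.39% higher at 16 h in that fit, and the same shares stand beside the single genes of the next lists. None of the 8 factors of selenoprotein synthesis was called in either fit, and Trnau1ap had the smallest adjusted p (-0.69, SE 0.219, adjusted p = 0.144) at 16 h. Phlda3, the other tested member of the PHLDA family, had 0.11 (SE 0.193) at 4 h and -0.23 (SE 0.193) at 16 h. Of 12 other deubiquitinase genes 0 were called with all 8 libraries, with a median of 0.006 at 16 h, and without replicate 2 of GFP at 16 h Usp5 fell (-0.42, adjusted p = 0.00576) and Tnfaip3 rose (0.42, adjusted p = 0.0263) at 16 h. Of 4 other genes of the Clec2 family and its receptors 0 were called with all 8 libraries. Of these, Clec2d had -1.34 (SE 0.427) at 16 h, and the others had positive values. Without replicate 2 of GFP at 16 h, Clec2d had -0.31 and Cd69, an early activation marker, 0.63. Of 13 other ankyrin repeat genes 0 were called with all 8 libraries, and Ankrd33b fell at 16 h without that library (-1.33, adjusted p = 0.00685). The genes Usp5, Tnfaip3, Clec2d, Cd69 and Ankrd33b were also named after their values were seen.

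Cd24a is abundant on several other cell types, and many of their defining markers had no or almost no counts. Of 8 B cell markers 1 passed the filter, Cd79b, with Igll1 at 0. Their summed level was 6.91 to 8.38 CPM in E47-ER libraries and 6.57 to 7.66 in GFP libraries at 4 h, and 8.25 to 8.81 in E47-ER and 9.40 to 15.4 CPM in GFP libraries at 16 h. Of 8 immature thymocyte markers 2 passed, Dntt and Cd1d1, with Rag1 and Rag2 at 0 and Cd8a at 1 count. The sum of the 8 was 3.97 to 4.75 CPM in E47-ER and 3.41 to 3.75 in GFP libraries at 4 h, and 5.54 to 6.58 in E47-ER and 3.43 to 6.79 CPM in GFP libraries at 16 h. With all 8 libraries Dntt, on 57 counts in total, had -1.86 at 4 h and 2.36 (SE 0.697) at 16 h. Cd1d1 had 0.29 and 0.12, and neither gene was called at either time. Of 7 erythroid markers 1 passed, with Hba-a2 and Hbb-bs at 0, and their sum was 0.896 to 1.08 CPM in E47-ER and 0.822 to 1.16 in GFP libraries at 4 h and 0.801 to 0.981 in E47-ER and 1.21 to 2.26 CPM in GFP libraries at 16 h. Of 9 granulocyte and macrophage markers 4 passed, with Elane and S100a9 at 0. Their sum was 22.1 to 28.5 CPM in E47-ER and 29.1 to 39.6 in GFP libraries at 4 h, and 17.8 to 21.1 in E47-ER and 24.9 to 85.6 CPM in GFP libraries at 16 h, with Ly6g alone at 10.6 to 81.5 CPM across libraries (-0.79, adjusted p = 1 at 4 h and -2.10, adjusted p = 0.124 at 16 h). The other markers that passed went the other way at both times, and none of the 4 was called with all 8 libraries. Csf1r, on 77 counts in total, had 2.73 at 4 h and 1.02 at 16 h. Adgre1 had 0.58 and 0.405, and Itgam 0.59 and 0.79. Of 6 epithelial markers 3 passed, with Foxn1 at 0, and their sum was 17.2 to 20.1 CPM in E47-ER and 8.72 to 12.2 in GFP libraries at 4 h and 31.4 to 34.1 in E47-ER and 10.2 to 13.7 CPM in GFP libraries at 16 h. Epcam (1.56, adjusted p = 0.0285) and Cdh1 (1.93, adjusted p = 0.0249) rose at 16 h with all 8 libraries, where 1.25% of all genes were called higher. At 4 h Epcam had 0.97 and Cdh1 1.15, neither called in that fit. Krt18, the other epithelial marker that passed, was lower with all 8 libraries and not called (-0.76 at 4 h and -0.32 at 16 h). The keratin genes Krt5 and Krt8 had 2 and 13 counts in total. Of 5 fibroblast markers 1 passed, with a sum of 7.41 to 9.54 CPM in E47-ER and 6.76 to 8.66 in GFP libraries at 4 h and 8.48 to 8.72 in E47-ER and 5.06 to 9.34 CPM in GFP libraries at 16 h. The part of such cells in the levels of the 7 genes was not tested, and in bulk RNA fewer cells with a transcript and less of it per cell cannot be told apart.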

How the data were processed

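Bulk RNA-seq counts were taken as deposited by the authors, as raw whole-number counts for 50686 Ensembl genes in 8 libraries, 2 per group, with no normalization. The submitters' processing notes name mm10 and DESeq2 without saying what each was used for. How reads were aligned, counted and assigned to strands is not given in the sources used here. Of the gene IDs, 50462 matched a symbol of GENCODE M21, which also gave coordinates and lengths.

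Genes passing filterByExpr with a minimum count of 10 (13644 genes) were scaled by TMM and fitted in edgeR 4.0.16 (R 4.3.3) with 1 mean per group and robust quasi-likelihood dispersion. The Benjamini-Hochberg adjustment of its two-sided p-values ran over all genes tested, with calls at an adjusted p under 0.05. SE was taken as the size of the log2 fold change over the root of the F statistic. CPM and RPKM were computed from the counts with the TMM factors. The length correction was a loess of log2 CPM on log2 longest transcript, 1 per library. Like profiles were ranked by Pearson r of log2 CPM with a prior count of 2. Copies of the 7 genes were sought with BLAST 2.17.0 at 90% identity over at least 100 bases. Alternatives used DESeq2 1.42.0 and limma 3.58.1. The fit was also run on simulated counts with changes placed only at 4 h. No library like replicate 2 of GFP at 16 h was simulated, so that run cannot show how the fit handles it. Python 3.11.15 with matplotlib 3.10.9 drew the figures.

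The members and the gene lists were chosen with earlier results of these data known. The 7 genes are always named; each list names up to 3 called genes by smallest adjusted p, or the 1 with the smallest adjusted p at 16 h where none was called.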

Additional observations from a re-analysis of the deposited data

How the results depend on the processing

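All 7 genes kept a negative log2 fold change at 4 h and at 16 h under all 20 alternatives, from -1.19 to -0.33 at 4 h and from -2.18 to -0.92 at 16 h. The number of the 7 called at 4 h was 0 with all 8 libraries, 1 with DESeq2, 1 with no filter on low counts, 4 with limma voom and quality weights, 6 with only the 4 libraries of the time, and 0 to 6 when 1 library was left out. At 16 h it was 7, but 6 with a minimum count of 30 (without Uchl1), 6 with limma voom, with a shared replicate block and with the length correction plus a block (without Ankrd36 in each), 0 with only the 4 libraries of the time, 1 with a replicate block within each time, and 0 to 7 when 1 library was left out. The count of all genes called at 4 h was 39, against 115 with DESeq2, 19 with library totals only, 165 with no filter, 401 with limma voom, 442 with only the 4 libraries, 69 with the length correction, and 1 to 619 when 1 library was left out. At 16 h it was 217, against 944 with DESeq2, 1816 with no filter, 52 with limma voom, 6 with only the 4 libraries, 359 with the length correction, and 15 to 7022 when 1 library was left out. A replicate block within each time gave 11 genes at 4 h and 54 at 16 h; replicate numbers are not stated to pair libraries, and the differences between replicates correlated across genes at 0.024 (4 h) and -0.09 (16 h) between E47-ER and GFP cells. Of all genes, 46 were called lower at 16 h with all 8 libraries. This number was 45 with a minimum count of 30, 14 with limma voom, 42 with a shared replicate block and 40 with the length correction plus a block. Library totals without TMM moved the median of all genes at 16 h to 0.115. Without replicate 2 of GFP at 16 h, the change with time in GFP cells turned to -0.008 for Cd24a and -0.05 for Phlda1, and over all fits without 1 library it ran up to 0.316 for Cd24a and 0.954 for Phlda1. The cause of these changes was not tested. Depth limits Ankrd36 most, with 64 counts in its lowest library.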
